A study of Mus musculus with 36 samples.

Results

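The 8 aquaporins and 2 vasopressin receptors Aqp1, Aqp2, Aqp3, Aqp4, Aqp6, Aqp7, Aqp8, Aqp11, Avpr1a and Avpr2 were followed in kidneys of mice with and without the clock factor BMAL1 in the renal tubule and with and without streptozotocin diabetes. They were taken by gene symbol from the 53715 genes of each deposited table. All 10 passed the filter on low counts and were among the 15637 genes tested. Messenger RNA of whole kidney was sequenced in 36 libraries, with 4 groups of 9. STZ-cKOt mice carried Bmal1 lox/lox, Pax8-rtTA and LC1, in which doxycycline induces Cre in Pax8-expressing cells, the epithelium of the renal tubule, and they received streptozotocin (STZ). PBS-cKOt mice had the same alleles and received the vehicle, phosphate-buffered saline (PBS). STZ-control and PBS-control mice were littermates with Bmal1 lox/lox alone. All 4 groups were given doxycycline at 2 mg/ml in drinking water for 2 weeks, from an age of 8 weeks. Injections followed 1 week later, daily for 5 days, at 50 mg/kg in STZ mice. Tissue was collected at zeitgeber time 9 (hours after lights on), when 8 weeks had passed since injections ended. A single time of day was sampled, so a change in level and a change in daily phase cannot be told apart.

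Aquaporins are channels that let water, and in some members glycerol or other small solutes, cross membranes. In the kidney AQP1 serves the proximal tubule, the descending thin limb and the descending vasa recta. AQP2 sits in the apical membrane and vesicles of collecting duct principal cells, and AQP3 and AQP4 form the basolateral exit. Vasopressin acts on its V2 receptor, the product of Avpr2, which raises cAMP, moves AQP2 to the apical membrane and supports Aqp2 transcription. The V1a receptor, the product of Avpr1a, signals through Gq and calcium instead. High glucose in the tubular fluid of diabetic animals holds water back and causes an osmotic diuresis.

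Library depth, as reads counted in genes, was 16.9 to 22.3 M. Values below are counts per M assigned reads (CPM), scaled by the TMM method, unless a sentence says otherwise. Markers of the proximal tubule, thick ascending limb, distal segments, principal cells and intercalated cells were all read in all 4 groups, with 0 markers of these lists at 0. Arntl, the gene of BMAL1, was read at 14.4 ± 1.32 CPM in STZ-cKOt and 15.2 ± 1.47 in PBS-cKOt, against 3.18 ± 3.85 in STZ-control and 1.90 ± 0.404 in PBS-control (mean ± SD, n = 9 each). Arntl was thus higher in cKOt than in control kidneys, 4.45-fold in STZ mice and 8.00-fold in PBS mice, the opposite direction to a loss of the gene's transcript. The counts are over the whole gene and do not separate the deleted exons, so they do not check the deletion, and the cause of this direction was not tested. Group names below are those of the labels. The library labelled STZ-control 2 went against its label in this measure, at 13.4 CPM, while its group otherwise lay between 1.17 and 2.63. On the second principal component, with 17.6% of the variance, STZ-control 7 and 8 and PBS-cKOt 1 and 3 had the 4 highest scores, 20.6 to 43.6, with the next at 14.5. These 5 libraries were kept, and results that rest on them are given with and without them.

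Levels of the 10 genes were compared with one another only per kilobase of annotated exon. In PBS-control kidneys Aqp1 stood highest, at 284 ± 11.4 CPM per kilobase, followed by Aqp2 at 91.0 ± 26.0 and Aqp3 at 45.4 ± 4.17 (mean ± SD, n = 9). Aqp6 came next at 16.6 ± 1.85. Aqp7 at 8.01 ± 0.747 and Aqp4 at 7.92 ± 2.98 did not differ beyond their spread, and Aqp11 followed at 6.05 ± 0.216. The receptors were lower, with Avpr2 at 4.78 ± 1.02 and Avpr1a at 1.85 ± 0.281, and Aqp8 was lowest at 0.340 ± 0.146 CPM per kilobase. In STZ-cKOt kidneys the top of this order was the same, but Aqp8 came next after Aqp3, at 19.2 ± 4.99 CPM per kilobase, above Aqp6 at 11.9 ± 2.32 in the same kidneys. Lengths are the union of annotated exons, from 1419 bases for Aqp2 to 9418 for Aqp11, and a transcript shorter than this union has its level understated.

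**Figure D1:**
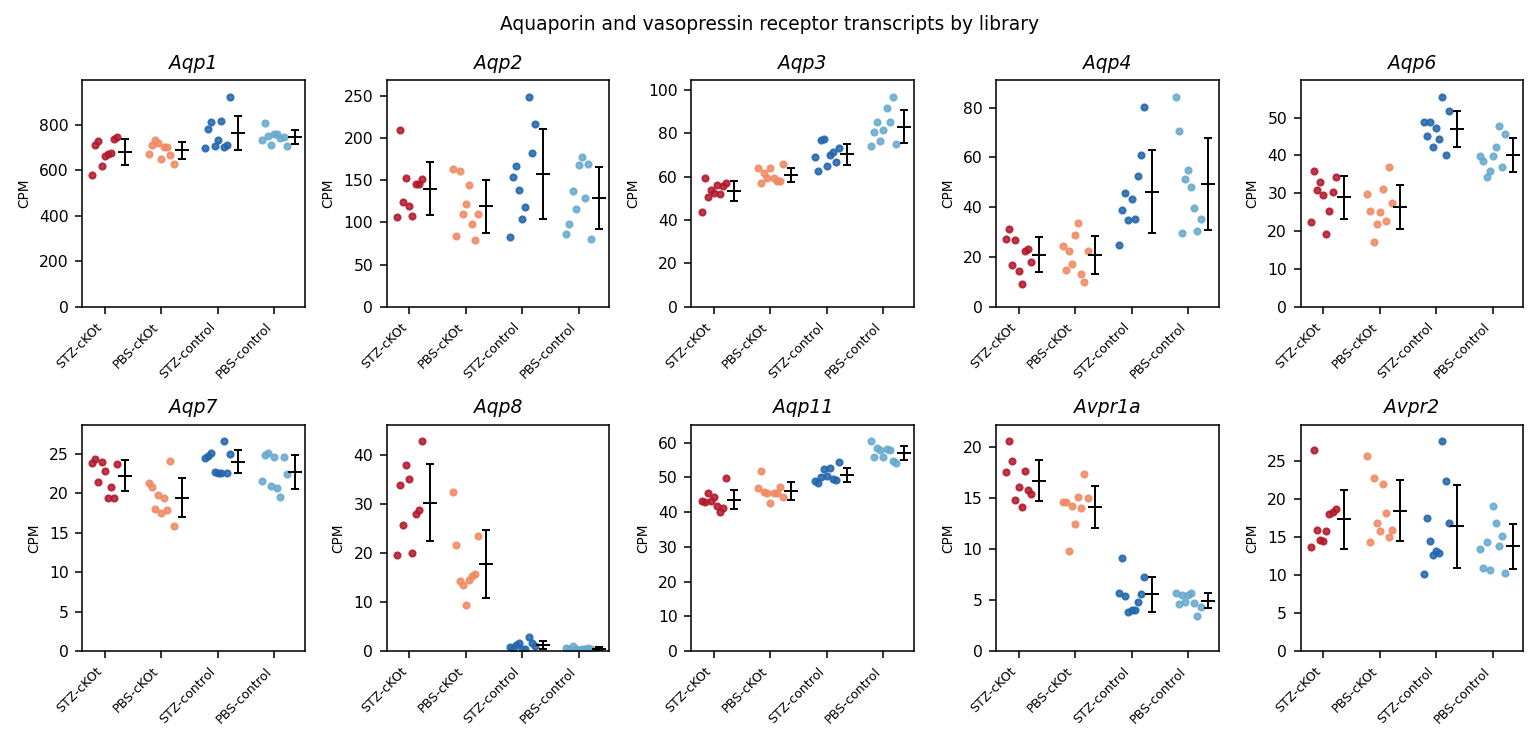
CPM of each of the 10 genes (vertical axes, from 0, a scale of its own for each gene) in the 36 libraries, by group. Points are libraries and black bars the mean ± SD of 9; Aqp8 and Avpr1a lie higher in every cKOt library than in every control library of the same treatment.

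Aqp8 and Avpr1a were higher and Aqp3, Aqp4, Aqp6 and Aqp11 lower in cKOt than in control kidneys, in diabetic and in vehicle-treated mice. In STZ mice 2 of the 10 genes were higher and 5 lower in cKOt than in control kidneys at an adjusted p under 0.05 (edgeR quasi-likelihood test, adjusted by Benjamini and Hochberg's method over all tested genes). Of all tested genes 19.6% were called in that comparison, 9.52% higher and 10.1% lower. In PBS mice 3 were higher and 5 lower, where 23.4% of all tested genes were called, 10.9% higher and 12.5% lower. The median log2 change of the 10 was −0.16 in STZ mice and −0.17 in PBS mice, beside −0.008 and 0.002 over all tested genes. The comparisons in STZ and in PBS mice share no library.

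**Figure D2:**
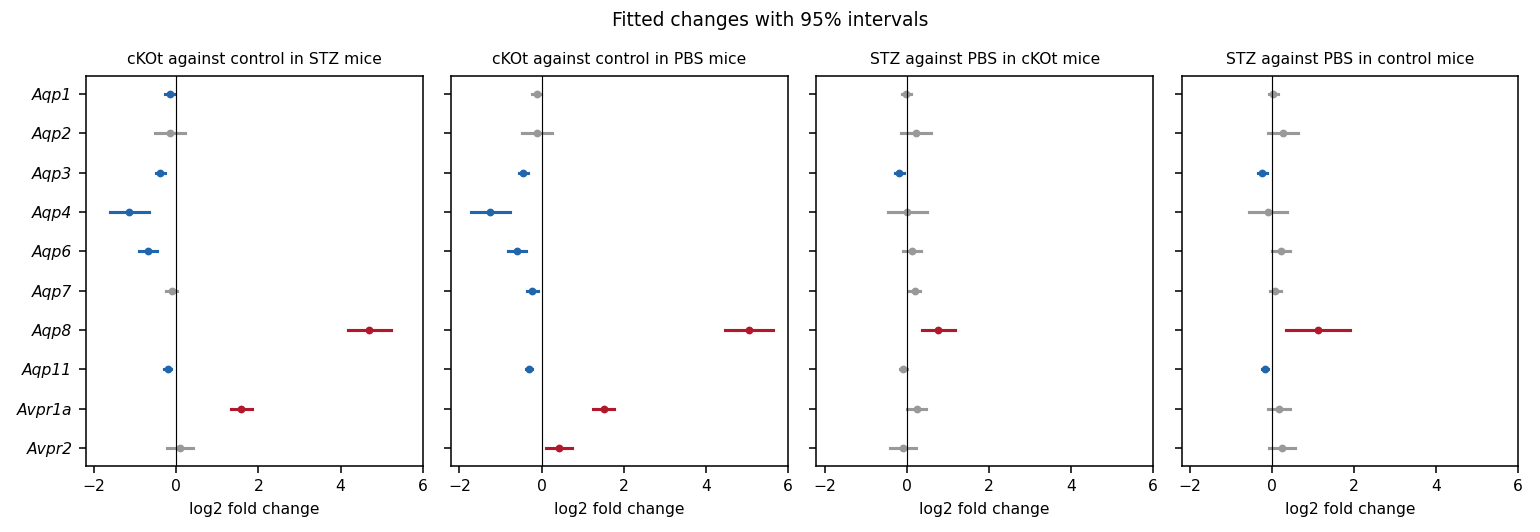
Fitted log2 fold changes (horizontal axes) of the 10 genes with 95% intervals, for the knockout in STZ and PBS mice and for STZ in cKOt and control mice. Red marks genes called higher, blue called lower and grey not called, and the knockout panels hold 7 and 8 called genes where the STZ panels hold 2 and 3.

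Aqp8 (ENSMUSG00000030762, chromosome 7, 123462291 to 123468004, plus strand, GRCm38) had the largest knockout difference of the 10 genes in both treatments. AQP8 conducts water and has been placed inside cells, including on mitochondria, in several epithelia. In STZ-cKOt kidneys its level ran from 19.8 to 42.9 CPM with a median of 28.9, against 0.425 to 2.92 CPM with a median of 1.10 in STZ-control kidneys. In PBS-cKOt kidneys it ran from 9.34 to 32.4 CPM with a median of 15.3, against 0.243 to 1.04 CPM with a median of 0.488 in PBS-control kidneys. The groups did not overlap in either treatment, and 9 of 9 cKOt libraries lay above each control library. The difference was 26.0-fold in STZ mice (log2 4.70 ± 0.26, ± SE, edgeR adjusted p = 2.48e-17) and 33.1-fold in PBS mice (log2 5.05 ± 0.29, adjusted p = 9.65e-17). Control kidneys gave few reads of this gene, 9 to 44 per library in STZ-control and 5 to 19 in PBS-control, so the size of the fold rests on low counts. The library labelled STZ-control 2, with its high Arntl, had 0.589 CPM of Aqp8, within the 0.425 to 2.92 CPM of the other 8 STZ-control libraries. Hepatocytes also express Aqp8. The summed level of 6 hepatocyte markers was 120.6 to 223.7 CPM in STZ-cKOt and 107.6 to 217.7 in PBS-cKOt, against 109.4 to 205.5 in STZ-control and 117.8 to 213.8 in PBS-control, ranges that overlap in both treatments. Alb, the gene of albumin, was lower in cKOt kidneys, at log2 −2.51 ± 0.30 in STZ and −2.24 ± 0.29 in PBS mice. Serpina1a was also lower in both, at −1.85 ± 0.24 and −1.35 ± 0.23. In STZ mice Apoa2 was higher by 0.80 ± 0.15 and Ttr, which made up most of the sum at 156.7 CPM in STZ-cKOt and 114.4 in STZ-control (means), by 0.46 ± 0.16. Of the 4 hepatocyte markers tested 2 were higher and 2 lower in STZ-cKOt, and 0 were higher and 2 lower in PBS-cKOt. Cps1 and Ahsg, too low to be tested, had at most 8 and 9 reads in a library. Among all tested genes 19.6% were called in STZ and 23.4% in PBS mice.

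Avpr1a (ENSMUSG00000020123, chromosome 10, 122448499 to 122453452, plus strand) rose in both treatments. Its receptor is known in the kidney from intercalated cells of the collecting duct, glomerular mesangium and vessels. The level ran from 14.1 to 20.5 CPM with a median of 16.0 in STZ-cKOt kidneys, against 3.88 to 9.15 CPM with a median of 5.45 in STZ-control kidneys. It ran from 9.79 to 17.4 CPM with a median of 14.6 in PBS-cKOt kidneys, against 3.46 to 5.72 CPM with a median of 4.79 in PBS-control kidneys. Again the groups did not overlap in either treatment. The fold was 2.99 in STZ mice (log2 1.58 ± 0.13, edgeR adjusted p = 8.62e-13) and 2.86 in PBS mice (log2 1.52 ± 0.13, adjusted p = 3.3e-12). The highest STZ-control library was the one labelled STZ-control 2, at 9.15 CPM, with the other 8 at 3.88 to 7.31. Without it the log2 change in STZ mice was 1.71 ± 0.11. A non-coding gene annotated as antisense, Gm48877, lies over Avpr1a on the opposite strand but shares 0 exon bases with it.

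RefSeq promoter windows on GRCm38.p6 were used for 9 of the 10 genes. Aqp4 was left out of this search, so the counts of motifs below do not cover it. The 250 bases before the start given by RefSeq were searched on both strands for 6 sets of letters. These were the E-box CACGTG bound by BMAL1 and its partners, the variant CACGTT, the D-box TTACGTAA or TTATGTAA, the ROR and REV-ERB half-site AGGTCA, and the element TGACGTCA through which cAMP acts, with its half-site TGACG, which lies within it. The E-box was found in Aqp8, Aqp2 and Aqp6, 3 of the 9 genes, where 6.02% of all 32851 promoter windows of this length held one. These 3 genes did not move alike in the knockout: Aqp8 rose, Aqp6 fell and Aqp2 was not called. Avpr1a had no E-box in its window and a single half-site TGACG, which 17.8% of windows held. The half-site was also found in Aqp2. AGGTCA was found in Aqp7 and Aqp11, and 14.0% of windows held it. Windows of Aqp1, Aqp3 and Avpr2 held none of these letters, and CACGTT, the D-box and the full cAMP response element were found in none of the 9 genes. A match is a description of the letters and not evidence of binding. The windows of the genes with an E-box and of Avpr1a are shown 5′ to 3′ on the gene's strand. They end at the base before the RefSeq start and carry the searched motifs in capitals.
Aqp8, chr7:123462044-123462293, plus strand: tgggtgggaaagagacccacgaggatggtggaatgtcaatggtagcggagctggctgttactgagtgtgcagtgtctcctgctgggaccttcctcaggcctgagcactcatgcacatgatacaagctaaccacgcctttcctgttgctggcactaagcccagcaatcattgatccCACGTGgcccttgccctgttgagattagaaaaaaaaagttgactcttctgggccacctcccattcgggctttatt
Aqp2, chr15:99578806-99579055, plus strand: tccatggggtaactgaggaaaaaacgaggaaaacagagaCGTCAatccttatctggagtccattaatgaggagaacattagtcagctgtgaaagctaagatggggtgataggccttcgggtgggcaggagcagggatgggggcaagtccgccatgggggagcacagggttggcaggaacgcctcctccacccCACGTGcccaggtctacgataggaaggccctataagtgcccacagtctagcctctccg
Aqp6, chr15:99600950-99601199, plus strand: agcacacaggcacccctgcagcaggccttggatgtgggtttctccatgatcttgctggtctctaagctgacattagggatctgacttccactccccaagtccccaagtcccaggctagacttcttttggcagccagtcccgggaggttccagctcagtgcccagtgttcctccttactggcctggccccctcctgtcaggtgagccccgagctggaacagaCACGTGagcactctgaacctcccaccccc
Avpr1a, chr10:122448249-122448498, plus strand: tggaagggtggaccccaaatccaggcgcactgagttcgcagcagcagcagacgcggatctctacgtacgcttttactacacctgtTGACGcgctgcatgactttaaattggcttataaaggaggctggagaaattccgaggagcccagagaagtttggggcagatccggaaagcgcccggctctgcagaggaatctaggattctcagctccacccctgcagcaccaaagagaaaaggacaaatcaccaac
The E-box began 75 bases before the RefSeq start of Aqp8, 58 bases before that of Aqp2 and 29 bases before that of Aqp6. RefSeq starts can differ from the GENCODE gene coordinates given in the text. The Aqp6 window ended at 99601199, where the GENCODE gene starts at 99601400. The Aqp8 window ended at 123462293, past the GENCODE start at 123462291.

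Among the water channels of the principal cell, the basolateral pair fell while the apical channel was not called. Counts of whole kidney do not assign the reads of these genes to a cell type. Aqp3 (chromosome 4, 41092722 to 41098183, minus strand), which also conducts glycerol, ran from 43.8 to 59.6 CPM in STZ-cKOt with a median of 53.7, against 62.9 to 77.5 with a median of 69.8 in STZ-control. It ran from 57.2 to 66.0 CPM in PBS-cKOt with a median of 59.5, against 74.2 to 96.8 with a median of 81.4 in PBS-control. Every cKOt library lay below every control library of the same treatment. The lowest STZ-control library was the one labelled STZ-control 2, at 62.9 CPM, with the other 8 at 64.9 to 77.5. The fall was 1.31-fold in STZ mice (log2 −0.39 ± 0.06, edgeR adjusted p = 6.6e-07) and 1.36-fold in PBS mice (log2 −0.45 ± 0.06, adjusted p = 4.16e-08).

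Aqp4 (chromosome 18, 15389496 to 15410982, minus strand) fell more than Aqp3 in fold but varied more between libraries. It ran from 9.15 to 31.3 CPM in STZ-cKOt with a median of 22.2, against 24.7 to 80.2 with a median of 43.5 in STZ-control. It ran from 9.85 to 33.5 CPM in PBS-cKOt with a median of 22.4, against 29.6 to 84.3 with a median of 48.0 in PBS-control. The ranges touched in both treatments, with 6 of 9 STZ-cKOt and 8 of 9 PBS-cKOt libraries below all controls. The fall was 2.21-fold in STZ mice (log2 −1.14 ± 0.23, edgeR adjusted p = 0.000289) and 2.38-fold in PBS mice (log2 −1.25 ± 0.23, adjusted p = 7.75e-05). Its coefficient of variation was 33.4% to 37.6% over the 4 groups, where that of Aqp3 was 5.20% to 9.18%.

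Aqp2 (chromosome 15, 99579055 to 99584547, plus strand) ran from 106.6 to 209.5 CPM in STZ-cKOt with a median of 145.1, against 82.7 to 248.7 with a median of 154.1 in STZ-control. It ran from 79.6 to 163.5 CPM in PBS-cKOt with a median of 109.7, against 80.0 to 178.0 with a median of 128.9 in PBS-control. The groups overlapped over most of their ranges. The log2 difference was −0.16 in STZ mice, with a 95% interval of −0.53 to 0.20 (edgeR adjusted p = 0.581), and −0.12 in PBS mice, with an interval of −0.48 to 0.25 (adjusted p = 0.679). These intervals leave room for a fall the size of that of Aqp3.

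The V2 receptor gene Avpr2 (chromosome X, 73892102 to 73895502, plus strand) did not follow the basolateral channels. It ran from 13.6 to 26.4 CPM in STZ-cKOt with a median of 15.9, against 10.2 to 27.5 with a median of 14.5 in STZ-control. It ran from 14.3 to 25.6 CPM in PBS-cKOt with a median of 16.8, against 10.2 to 19.0 with a median of 13.7 in PBS-control. The groups overlapped in both treatments. In STZ mice the log2 difference was 0.09 ± 0.15 (edgeR adjusted p = 0.755), and 0.31 ± 0.13 (adjusted p = 0.0875) without STZ-control 7 and 8 and PBS-cKOt 1 and 3. In PBS mice it was higher in cKOt by 0.42 ± 0.15 (adjusted p = 0.0447), a call that was lost without these 4 libraries (0.30 ± 0.13, adjusted p = 0.101). PBS-cKOt 1 and 3 had the 2 highest Avpr2 levels of their group, 25.6 and 22.7 CPM. Exons of Arhgap4 and L1cam on the opposite strand cover 2347 of the 2886 exon bases of Avpr2. The strand setting of the counting is not given in the sources used here, so the count of Avpr2 is uncertain to that extent.

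Beside Aqp3 and Aqp4, the markers of principal cells were mixed in direction in STZ mice. In PBS mice each of them had a higher mean CPM in PBS-cKOt than in PBS-control. Of 7 markers 1 was higher and 0 lower in STZ-cKOt than in STZ-control, and 2 were higher and 0 lower in PBS-cKOt than in PBS-control. Over all tested genes the share called was 19.6% in STZ mice and 23.4% in PBS mice. The matrix protein gene Npnt moved most, by log2 1.19 ± 0.06 in STZ mice (edgeR adjusted p = 1.83e-17) and 1.38 ± 0.06 in PBS mice (adjusted p = 1.42e-19). The sodium channel subunit gene Scnn1b was higher by 0.41 ± 0.09 in PBS mice. In STZ mice Fxyd4, a regulator of the sodium pump, stood at −0.39 ± 0.18 (edgeR adjusted p = 0.121) and Hsd11b2, which inactivates glucocorticoids, at −0.27 ± 0.11 (adjusted p = 0.0805), values about the size of that of Aqp3 that were not called. In PBS mice they stood at 0.29 ± 0.18 and 0.20 ± 0.11. The median of the 7 was −0.04 in STZ mice and 0.29 in PBS mice. Their part in the results for Aqp3 and Aqp4 was not tested. Leaving out Npnt, the summed level of the other 6 ran from 204.0 to 272.0 CPM in STZ-cKOt, against 191.2 to 355.9 in STZ-control. It ran from 219.4 to 312.1 CPM in PBS-cKOt, against 189.9 to 258.0 in PBS-control. In whole kidney, fewer cells of a type and less RNA per cell cannot be told apart.

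**Figure D3:**
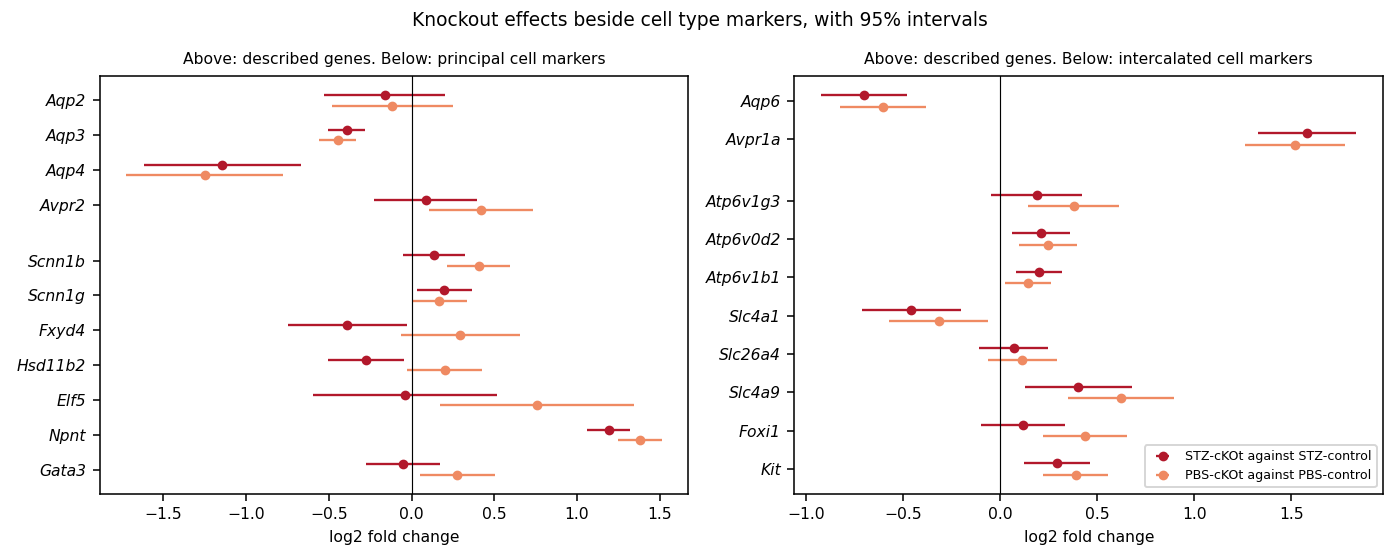
Knockout effects as log2 fold changes with 95% intervals (horizontal axes) in STZ and PBS mice. Left, Aqp2, Aqp3, Aqp4 and Avpr2 above 7 principal cell markers; right, Aqp6 and Avpr1a above 8 intercalated cell markers. Aqp3, Aqp4 and Aqp6 lie left of 0; of the markers Npnt lies farthest to the right of it, at 1.19 and 1.38.

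Aqp6 (chromosome 15, 99601400 to 99605477, plus strand) encodes a channel of intracellular vesicles in acid-secreting intercalated cells that also passes anions. It ran from 19.2 to 35.9 CPM in STZ-cKOt with a median of 30.4, against 40.1 to 55.4 with a median of 47.2 in STZ-control. It ran from 17.1 to 37.0 CPM in PBS-cKOt with a median of 25.4, against 34.2 to 47.9 with a median of 39.7 in PBS-control. The groups were separate in STZ mice, and in PBS mice 8 of 9 cKOt libraries lay below all controls. The fall was 1.63-fold in STZ mice (log2 −0.70 ± 0.11, edgeR adjusted p = 3.89e-06) and 1.52-fold in PBS mice (log2 −0.60 ± 0.11, adjusted p = 4.81e-05).

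Of 8 intercalated cell markers 4 were higher and 1 lower in STZ-cKOt, and 5 were higher and 0 lower in PBS-cKOt, each against its control group. The share called over all tested genes was 19.6% in STZ and 23.4% in PBS mice. The 1 marker that fell in STZ mice was Slc4a1, the chloride and bicarbonate exchanger AE1 of the same acid-secreting cells, at log2 −0.46 ± 0.12 (edgeR adjusted p = 0.00667). In PBS mice its value was −0.32 ± 0.12 (adjusted p = 0.0617). Kit, at 0.29 ± 0.08 and 0.39 ± 0.08, and Slc4a9, the exchanger of bicarbonate-secreting cells, at 0.40 ± 0.13 and 0.62 ± 0.14, were higher in STZ and in PBS mice. The summed level of the 8 markers was 410.6 to 562.4 CPM in STZ-cKOt against 335.8 to 497.1 in STZ-control, and 401.9 to 501.9 in PBS-cKOt against 347.6 to 427.7 in PBS-control. Their part in the results for Aqp6 and Avpr1a was not tested.

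Among the genes of the proximal tubule, Aqp11 fell in both treatments. The gene (chromosome 7, 97724006 to 97738289, minus strand) encodes a channel of the endoplasmic reticulum whose loss causes polycystic kidneys in mice. It ran from 40.1 to 50.0 CPM in STZ-cKOt with a median of 43.3, against 48.2 to 54.3 with a median of 50.2 in STZ-control. It ran from 42.5 to 51.8 CPM in PBS-cKOt with a median of 45.5, against 54.0 to 60.3 with a median of 57.8 in PBS-control. The groups were separate in PBS mice, and 8 of 9 STZ-cKOt libraries lay below all STZ-control libraries. The library labelled STZ-control 2 was the lowest of its group, at 48.2 CPM, with the other 8 at 49.0 to 54.3. The fall was 1.16-fold in STZ mice (log2 −0.22 ± 0.04, edgeR adjusted p = 0.000114) and 1.24-fold in PBS mice (log2 −0.31 ± 0.04, adjusted p = 2.14e-07).

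Aqp1 (chromosome 6, 55336432 to 55348555, plus strand) ran from 579.2 to 748.1 CPM in STZ-cKOt with a median of 675.2, against 700.5 to 923.0 with a median of 733.5 in STZ-control. It ran from 628.6 to 733.7 CPM in PBS-cKOt with a median of 701.2, against 706.6 to 808.6 with a median of 748.6 in PBS-control. The ranges overlapped at their edges in both treatments. Aqp1 fell 1.12-fold in STZ mice (log2 −0.17 ± 0.05, edgeR adjusted p = 0.0224) and was not called in PBS mice (−0.12 ± 0.05, adjusted p = 0.0997). The call in STZ mice was lost with total reads alone as the scale (adjusted p = 0.392), with no filter on low counts (0.105) and in a fit to the 2 groups only (0.091). In PBS mice Aqp1 was called lower with limma voom (−0.124, adjusted p = 0.044). A difference between the treatments was thus not shown.

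Aqp7 (chromosome 4, 41033074 to 41048139, minus strand), a glycerol channel of the straight proximal tubule, was called in PBS mice and not in STZ mice. It ran from 19.4 to 24.3 CPM in STZ-cKOt with a median of 22.8, against 22.5 to 26.5 with a median of 24.5 in STZ-control. It ran from 15.9 to 24.1 CPM in PBS-cKOt with a median of 19.4, against 19.5 to 25.1 with a median of 22.4 in PBS-control. It fell 1.17-fold in PBS mice (log2 −0.22 ± 0.07, edgeR adjusted p = 0.0112), a call lost with total reads alone as the scale (−0.11, adjusted p = 0.188). In STZ mice it was not called (−0.11 ± 0.07, adjusted p = 0.238). Of 9 proximal tubule markers 1 was higher and 3 lower in STZ-cKOt, and 0 were higher and 2 lower in PBS-cKOt. Beside these counts, 19.6% of all tested genes were called in STZ and 23.4% in PBS mice. The dicarboxylate transporter gene Slc13a3 was lower in both, at −0.57 ± 0.09 and −0.49 ± 0.08. Gatm, an enzyme of creatine synthesis, moved the other way, by 1.05 ± 0.17 in STZ mice (edgeR adjusted p = 6.6e-06), and stood at 0.37 ± 0.17 in PBS mice (adjusted p = 0.105). Their summed level overlapped, at 8217 to 11238 CPM in STZ-cKOt against 8034 to 11263 in STZ-control and 8844 to 12541 in PBS-cKOt against 10740 to 12545 in PBS-control. Of 6 endothelial markers, which bear on Aqp1 of the vasa recta, 0 were called in STZ mice and 1 was lower in PBS-cKOt. Fat cells also express Aqp7, and 0 of the 4 fat cell markers tested were called in either knockout comparison. Their median log2 change was 0.27 in STZ mice and −0.85 in PBS mice. They varied widely between libraries: Plin1 was 2.34 ± 3.01 CPM in PBS-cKOt and 5.05 ± 5.31 in PBS-control (mean ± SD). Their part in the result for Aqp7 was not tested.

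STZ diabetes changed fewer of these genes than the knockout did: 1 higher and 1 lower in cKOt mice, and 1 higher and 2 lower in control mice. Of all tested genes 11.6% were called in cKOt mice, 6.00% higher and 5.63% lower, and 12.3% in control mice, 6.34% higher and 5.93% lower. The comparisons of STZ with PBS share their libraries with those of cKOt with control. Aqp3 fell in both genotypes, by 0.19 ± 0.06 on the log2 scale in cKOt mice (edgeR adjusted p = 0.0216) and by 0.24 ± 0.06 in control mice (adjusted p = 0.00302). In each genotype 7 of 9 STZ libraries lay below all PBS libraries. The call in cKOt mice was lost with total reads alone as the scale (adjusted p = 0.118), with no filter (0.0655) and without the 4 libraries that stood apart (0.0627). Aqp11 fell in control mice (log2 −0.17 ± 0.04, adjusted p = 0.00443), where 8 of 9 STZ-control libraries lay below all PBS-control libraries, a call lost with total reads alone (adjusted p = 0.0912). In cKOt mice its value was −0.08 ± 0.04 (adjusted p = 0.224).

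Aqp8 was higher after STZ in both genotypes. In cKOt mice the rise was 1.70-fold (log2 0.77 ± 0.20, edgeR adjusted p = 0.00744), and 6 of 9 PBS-cKOt libraries lay below all STZ-cKOt libraries. In control mice it was 2.17-fold between levels near 1 CPM (log2 1.12 ± 0.38, adjusted p = 0.046). The libraries STZ-control 7 and 8 were the highest of their group, at 2.92 and 1.76 CPM. Without the 4 libraries that stood apart it was 0.75 ± 0.37 (adjusted p = 0.215), and it was also lost with limma voom (adjusted p = 0.28) and with no filter (0.0581).

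Neither Aqp2 nor either receptor was called after STZ. The log2 change of Aqp2 was 0.24 in cKOt mice, with a 95% interval of −0.13 to 0.60, and 0.28 in control mice, with an interval of −0.09 to 0.65. Avpr1a stood at 0.24 ± 0.12 in cKOt mice (edgeR adjusted p = 0.194) and at 0.18 ± 0.13 in control mice (adjusted p = 0.401). Avpr2 stood at −0.09 ± 0.15 and 0.24 ± 0.16. Aqp6, at 0.13 ± 0.11 and 0.23 ± 0.11, Aqp4, at 0.01 ± 0.23 and −0.09 ± 0.23, and Aqp1, at −0.01 ± 0.05 and 0.04 ± 0.05, were not called either. Aqp7 lay just above the threshold in cKOt mice (0.19 ± 0.07, adjusted p = 0.0507) and passed it under 4 of the other settings, and stood at 0.08 ± 0.07 in control mice. Of the 4 fat cell markers tested 3 were lower in STZ-control than in PBS-control and 0 were called in STZ-cKOt against PBS-cKOt. Their median log2 change was −2.32 in the former and −1.37 in the latter. Principal cell markers were called higher in 3 of 7 and lower in 0 of 7 in STZ-control against PBS-control. They were called higher in 0 and lower in 1 in STZ-cKOt against PBS-cKOt. Over all tested genes 12.3% were called in control mice and 11.6% in cKOt mice.

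The effect of STZ was not shown to differ between genotypes for any of the 10 genes. The lowest edgeR adjusted p of the interaction was 0.468, for Aqp11, with 0 of the 10 at an unadjusted p under 0.05 and 0 called with DESeq2 or limma voom. Of all tested genes 0.0448% were called. For Aqp8 the STZ effect in cKOt minus that in control mice was −0.35 on the log2 scale, with a 95% interval of −1.22 to 0.51. For Avpr1a it was 0.06, with an interval of −0.30 to 0.42, and for Aqp4 0.11, with an interval of −0.56 to 0.77.

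Among the genes around the vasopressin receptors, 1 or 2 in each list were called, where 19.6% of all tested genes were called in STZ mice and 23.4% in PBS mice, so these counts are near or below the background. Of 12 genes of cAMP signalling 1 was higher and 1 lower in STZ-cKOt, where Prkar1a, a regulatory subunit of protein kinase A, stood at log2 0.14 ± 0.04 and Arrb2, an arrestin, at −0.24 ± 0.08. In PBS-cKOt 0 were higher and 1 lower, the adenylyl cyclase gene Adcy3 at −0.68 ± 0.18 (edgeR adjusted p = 0.00383). Adcy6, the main cyclase of the collecting duct, was not called, at 0.10 ± 0.06 in STZ and 0.15 ± 0.06 in PBS mice. Of 12 genes of AQP2 trafficking 1 was higher and 0 lower in each treatment. They were Myo5b, a vesicle motor, in STZ mice (0.26 ± 0.09) and Mal, a raft protein that binds AQP2, in PBS mice (0.30 ± 0.08). The medians of these lists lay between −0.02 and 0.04 in both knockout comparisons. Of 8 genes of Gq and calcium signalling 1 was higher and 1 lower in STZ-cKOt, with Itpr2, a calcium release channel, at 0.55 ± 0.12 and Itpr3, a related channel, at −0.25 ± 0.09. In PBS-cKOt 0 were higher and 1 lower, the phospholipase gene Plcb1 at −0.33 ± 0.11.

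Of 8 transcription factors of the collecting duct 1 was higher in STZ-cKOt and 3 in PBS-cKOt, with 0 lower in either. Their median log2 change was 0.015 in STZ and 0.304 in PBS mice. Of all tested genes 9.52% were called higher and 10.1% lower in STZ mice, and 10.9% and 12.5% in PBS mice. These shares also stand beside the lists that follow. Tfcp2l1, which patterns principal and intercalated cells in mice, rose in both, by log2 0.47 ± 0.07 (edgeR adjusted p = 2.83e-06) in STZ and 0.41 ± 0.07 (adjusted p = 3.56e-05) in PBS mice. Elf3 stood at 0.44 ± 0.13 and Grhl2 at 0.33 ± 0.10 in PBS mice. After STZ 0 of the 8 were called in cKOt mice and 4 were higher in control mice, Gata3, Elf3, Grhl2 and Elf5. The share of all tested genes called higher after STZ was 6.00% in cKOt mice and 6.34% in control mice. Of 8 urea transport and osmolyte genes 2 were higher in STZ-cKOt, the taurine transporter gene Slc6a6 (0.60 ± 0.11) and the betaine transporter gene Slc6a12 (0.67 ± 0.23). In PBS-cKOt 1 was higher, Slc14a2, the urea transporter of the inner medulla (0.63 ± 0.20). Slc6a12, which osmotic stress is known to induce, rose after STZ in both genotypes, by 1.27 ± 0.24 in cKOt (adjusted p = 0.000338) and 1.04 ± 0.25 in control mice (adjusted p = 0.00507). Of the 8 genes 1 was higher and 0 lower after STZ in cKOt mice, and 2 were higher and 1 lower in control mice. The other one higher in control mice was Slc14a2, at 0.67 ± 0.20, and the one lower was Slc6a6, at −0.36 ± 0.11 (edgeR adjusted p = 0.0215). Ptges, which makes prostaglandin E2, a lipid that opposes vasopressin, was the 1 of 9 in its list that rose in the knockout, by 0.32 ± 0.10 in STZ and 0.59 ± 0.10 in PBS mice. After STZ 1 of the 9 was higher and 0 lower in cKOt mice, Ptger4. In control mice 2 were higher and 0 lower after STZ, Ptges and Ptgs1.

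Within groups, Avpr2 and Aqp2 varied together. After the mean of each group was subtracted, log2(CPM + 1) of the 2 genes had a Pearson correlation of 0.855 over the 36 libraries, the highest among the 45 pairs of the 10 genes. It was 0.818 over the 32 libraries without STZ-control 7 and 8 and PBS-cKOt 1 and 3, and 0.822 to 0.887 within the single groups. The libraries share preparation, and the values are a description. Aqp2 was next closest to Aqp3, at 0.556, and Aqp4, at 0.452. Among 12790 genes those most like Aqp2 included Avpr2 and Cryab (0.844), and the 3 most like Avpr2 were Scx (0.869), Rgs11 (0.866) and Aqp2. STZ-control 7 and 8 and PBS-cKOt 1 and 3 lay among the 3 highest of their groups for both Aqp2 and Avpr2. Aqp6 was most like Esrrb (0.815), Trpm6 (0.800) and Slc4a1 (0.800), and Aqp8 most like Hspb6 (0.851), Pde9a (0.781) and Gstt3 (0.773). Aqp4 was most like Tmem30b, Hacd4 and Elf5, between 0.725 and 0.730. For Aqp1, Aqp3, Aqp7, Aqp11 and Avpr1a no gene exceeded 0.660.

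**Figure D4:**
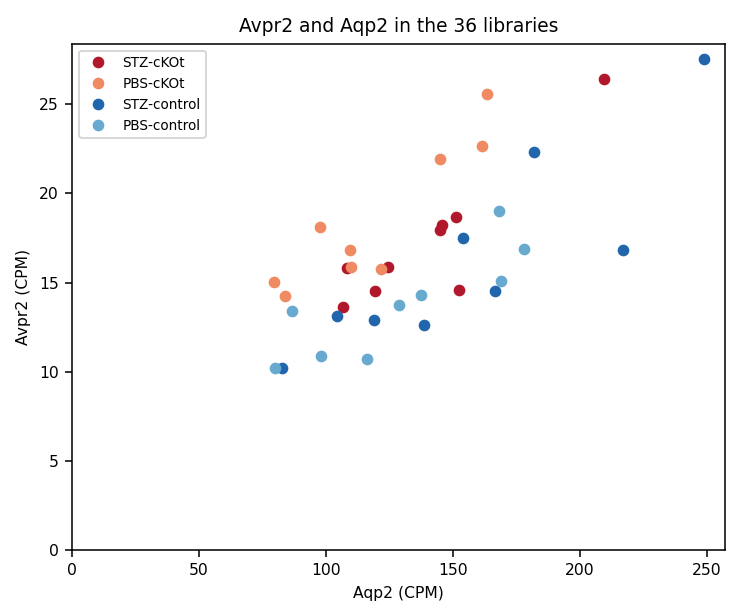
Avpr2 against Aqp2, both in CPM, in the 36 libraries, coloured by group. The correlation lay between 0.822 and 0.887 within the 4 groups, and the highest Avpr2 level, 27.5 CPM, and the highest Aqp2 level, 248.7 CPM, were in the same STZ-control library.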

How the data were processed

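Messenger RNA from whole kidneys was made into libraries from 500 ng of total RNA with a strand-specific kit, per the labels' protocols. Reads were trimmed with cutadapt 1.8, aligned with STAR 2.5.3a and counted with HTSeq 0.9.1 on GRCm38, tools and build named in the submitters' processing notes. The strand setting and the annotation release of the counting are not given in the sources used here. Deposited values are raw read counts per gene, unnormalized, with 1 table per library. Reads in no gene were left out: 30.9% to 42.8% of a library aligned at several places, 3.64% to 6.38% met no gene and 0.582% to 0.738% met several.

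Groups were taken from the labels, 9 libraries each. The labels do not say whether each library is a separate mouse, so p-values measure only the spread between these samples, which may be technical. Genes were filtered with filterByExpr and scaled by TMM, and the quasi-likelihood F test of edgeR 4.0.16 (R 4.3.3) was fitted to all 36 libraries with 1 mean per group (32 residual degrees of freedom). P-values were adjusted over 15637 genes by Benjamini and Hochberg's method, with a threshold of 0.05. The procedure was also run on simulated independent counts with changes set in PBS-cKOt alone. They held no libraries that stood apart, so that run does not bear on such libraries here. Alternatives used DESeq2 1.42.0 (Wald test, size factors), limma 3.58.1 (voom with quality weights), total reads, other filters, fits to the compared groups, a replicate block and fits without doubted libraries. Exon lengths and coordinates came from GENCODE M21 on GRCm38. The 10 genes, the pathway lists and the marker lists were chosen with earlier results of these data known. Only a part of each list was named, mostly genes past the threshold or with the lowest adjusted p, and some called genes are not named. One gene among those most like Aqp2 is not reported here.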

Additional observations from a re-analysis of the deposited data

Results flagged for a closer look

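Of 40 combinations of gene and group, 3 held a library far from the other 8 by Dixon's criterion, where chance gives about 1 in 20. STZ-cKOt 2 had 209.5 CPM of Aqp2, with the nearest library at 152.4. The same library had 26.4 CPM of Avpr2, with the nearest at 18.7. Its slope on exon length was −0.0475, the lowest after those of STZ-control 7 and 8 and PBS-cKOt 1 and 3. PBS-cKOt 2 had 51.8 CPM of Aqp11, with the nearest at 47.1, and still lay below all PBS-control libraries.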

How the results depend on the processing

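The knockout differences of Aqp3, Aqp4, Aqp6, Aqp8, Aqp11 and Avpr1a kept direction and call under all 10 alternatives in both treatments. Aqp8 lay between 4.61 and 5.13 on the log2 scale in STZ mice and between 4.93 and 5.16 in PBS mice, and Avpr1a between 1.56 and 1.71 and between 1.51 and 1.63. With total reads alone as the scale, the median of all genes shifted by 0.11 in the knockout comparison in PBS mice. All-gene calls were then 3032 higher and 961 lower for the knockout in STZ mice (1488 and 1573 as reported), 4404 and 990 in PBS mice (1707 and 1954), and 1515 and 382 for STZ in control mice (992 and 927). With no filter the last comparison gave 576 lower. The interaction gave 4 higher and 15 lower with DESeq2 and 15 lower with limma voom, against 0 and 7 as reported.

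Among the 10 genes, STZ in cKOt mice gave 2 higher with total reads, DESeq2, limma voom and a mean of at least 1 CPM, and 0 lower with total reads, no filter and without the 4 libraries. STZ in control mice gave 1 lower with total reads, 2 higher in a fit to the groups compared, and 0 higher with limma voom, no filter, the replicate block and without the 4 libraries. Direction reversed, never in a called difference, for Aqp1 after STZ in cKOt mice (0.028 with total reads, 0.001 without the 4 libraries), Aqp2 in the knockout in STZ mice (0.034 with limma voom, 0.003 without the 4 libraries) and Avpr2 after STZ in cKOt mice (0.041 without the 4 libraries). In the interaction it reversed with limma voom for Aqp2 (0.23) and Aqp8 (0.12), and without the 4 libraries for Aqp2 (0.27), Aqp8 (0.15), Avpr1a (−0.023) and Avpr2 (0.016). The cause was not tested.

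Replicate numbers were not taken as pairs: over 54 pairs of libraries with the same number the correlation of deviations had a median of 0.011, from −0.334 to 0.509, with 19 above 0.1. In 20 of 108 comparisons a library correlated best with its own number, where chance gives 12. With the replicate number as a block, Avpr2 in the knockout in PBS mice (0.43, edgeR adjusted p = 0.0511) and Aqp8 after STZ in control mice (1.10, adjusted p = 0.0546) lost their calls. Without the library labelled STZ-control 2 none of the calls among the 10 genes changed. Low counts limit Aqp8 in control kidneys, at 5 to 44 reads a library.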

Other observations

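The 6 other genes of these families looked up, Mip, Aqp5, Aqp9, Aqp12, Avpr1b and Oxtr, were too low to be tested. Mip had 0 reads in all 36 libraries, and Aqp12 and Avpr1b had at most 1. Aqp9, a glycerol channel of liver, had 0 to 7 reads, Aqp5 1 to 13 and Oxtr, the oxytocin receptor gene, 2 to 14.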
